A study of Mus musculus with 4 samples.

Results

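The Bcl2 family decides whether the mitochondrial outer membrane stays closed or is opened to start cell death, and 10 of its genes were followed here in immortalized mouse embryonic fibroblasts, a line grown from mouse embryos. The genes were taken by symbol, with 1 value per gene, from 23366 genes with FPKM, a fragment level scaled to transcript length and library total. They are Bcl2, Bcl2l1 and Mcl1, which protect the cell, the effectors Bax and Bak1, and the BH3-only genes Bad, Bid, Bcl2l11, Bbc3 and Pmaip1. The 4 cultures carried Myc, MycN, Minimal Myc or an empty vector, and every culture, vector included, had received adenoviral Cre recombinase before a recovery that the labels give as 48 with no unit. The series design sets cells that hold one of these proteins against cells whose Myc was deleted. There was 1 library per culture, so every difference is between single libraries with no replicate check, and no test or error could be given. The labels do not say whether a culture is 1 clone, what drives each Myc protein, or from which gene Minimal Myc was made.

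Proteins of this family meet at the mitochondrial outer membrane. The effectors Bax and Bak form pores there that release cytochrome c, the protective proteins hold them in check, and BH3-only proteins either bind the protective proteins or activate the effectors directly. Myc is known both to drive growth and to make fibroblasts prone to apoptosis, and part of that proneness is linked to p53 and to the Bcl2 family.

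Some features of the libraries bear on the members. Myc was 141 FPKM in Myc, 4.36 in MycN, 32.6 in Minimal Myc and 22.2 in vector, so the vector library is not shown to lack Myc transcript. Mycn was 0.275 FPKM in Myc, 178 in MycN, 95.9 in Minimal Myc and 0.390 in vector. Of 11640 genes averaging 1 FPKM or more, small RNA genes aside, most were higher than in vector, and the median difference of log2(FPKM + 1) was 0.47 in Myc, 0.42 in MycN and 0.47 in the Minimal Myc library. Values called relative to all genes below have that median subtracted. Malat1, a long non-coding RNA kept in the nucleus, was 124 FPKM in Myc, 192 in MycN, 64.0 in Minimal Myc and 381 in vector, and the untailed RNAs Rmrp and Rpph1 were also highest in vector. Neat1, another nuclear RNA, was 101 FPKM in Myc, 65.3 in MycN, 55.2 in Minimal Myc and 59.5 in vector. The 4 genes of this list summed to 260.0 FPKM in Myc, 350.3 in MycN, 146 in Minimal Myc and 614 in vector, and their part in any difference from vector was not tested. The same holds for the interferon response: 20 such genes summed to 145 FPKM in Myc, 75.9 in MycN, 1906 in Minimal Myc and 145 in vector. The fibroblast label fitted its markers in that all 10 were measured. They summed to 2511 to 3246 FPKM, of which S100a4 (932 to 1267) and Vim (476 to 830) were the largest parts. Pdgfra was 31.0 to 56.1 FPKM and Fbln1 17.2 to 43.1. Single markers were not even across libraries. Thy1 ranged from 95.5 FPKM in MycN to 354 in Minimal Myc, and Col3a1 from 35.3 in vector to 115 in MycN. The 6 endothelial markers were below 1 FPKM in every library, as were 7 of 9 epithelial and cornified markers and 5 of 8 immune markers. The summed level of the epithelial and cornified list was 4.04 FPKM in Myc, 0.950 in MycN, 9.69 in Minimal Myc and 33.5 in vector, most of it Sprr1a and Sprr2h, with Epcam, its defining gene, listed at 0 in 3 of them and at 0.00605 FPKM in Minimal Myc. The immune list summed to 6.73 FPKM in Myc, 8.52 in MycN, 3.15 in Minimal Myc and 5.44 in vector. The endothelial list summed to 0.534, 0.795, 0.250 and 1.32 FPKM in the same libraries.

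Promoter sequences were found in RefSeq (build GRCm38.p6) for 9 members, Pmaip1 being the exception, as 15 windows from 250 bases before to 50 bases after an annotated start. Myc and Max bind the E-box CACGTG, which reads the same on both strands, and 2 of the 15 windows held it, belonging to Bax and Bbc3. Among all 32851 windows given by RefSeq 7.15% held it, and 8.09% of 27025 genes had at least 1 such window. These shares cover all annotated genes, expressed here or not, and none was computed for the 11640 genes past the filter. The upstream 250 bases are shown for those 2 windows and for Bid, the member that differed most from vector, with any CACGTG in capitals.
Bax, chr7:45466899-45467148, minus strand: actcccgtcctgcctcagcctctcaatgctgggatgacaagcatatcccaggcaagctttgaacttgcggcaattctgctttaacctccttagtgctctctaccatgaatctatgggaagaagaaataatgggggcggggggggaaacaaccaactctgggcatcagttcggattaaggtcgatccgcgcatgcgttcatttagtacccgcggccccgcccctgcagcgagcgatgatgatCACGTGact
Bbc3, chr7:16310181-16310430, plus strand: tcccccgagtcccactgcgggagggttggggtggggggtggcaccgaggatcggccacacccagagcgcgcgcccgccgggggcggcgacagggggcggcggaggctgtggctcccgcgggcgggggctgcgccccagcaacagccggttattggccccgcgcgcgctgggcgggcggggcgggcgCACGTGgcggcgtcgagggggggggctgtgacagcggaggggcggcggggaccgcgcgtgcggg
Bid, chr6:120916825-120917074, minus strand: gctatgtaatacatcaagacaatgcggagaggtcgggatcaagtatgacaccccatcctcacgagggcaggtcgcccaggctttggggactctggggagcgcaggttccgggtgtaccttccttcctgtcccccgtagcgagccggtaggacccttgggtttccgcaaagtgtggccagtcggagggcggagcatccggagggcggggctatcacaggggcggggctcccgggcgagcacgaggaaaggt
In Bax the E-box begins 9 bases before the start, and its window held another beginning at base 36 after the start. The Bbc3 E-box begins 64 bases before the last of its 3 annotated starts, and the windows of the others held no match. The Bid window held no match, which says only that these letters are not within it. The 15 windows ranged from 49.3% to 78.0% G and C, with a median of 65.7%, beside a median of 52.7% over all windows.

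In unscaled FPKM the protective genes differed little between libraries, the highest value of each being 1.22 to 1.39 times its lowest. The BH3-only gene Bad lay within that range, at 1.34. In the authors' scaled table the spread was wider, with Myc highest and vector lowest. There Bcl2 was 5.36 FPKM in Myc and 2.22 in vector, Bcl2l1 60.1 and 29.2, and Mcl1 69.7 and 27.9. The values that follow are unscaled unless stated. Bcl2l1, whose long product Bcl-xL guards the mitochondrial membrane, was 29.4 FPKM in Myc, 26.6 in MycN, 35.1 in Minimal Myc and 29.2 in vector. Minimal Myc had the highest value and MycN the lowest, and Myc and vector differed by a ratio of 1.01. In bulk RNA, fewer cells of a type and less RNA per cell cannot be told apart, here and in every value that follows. Mcl1, a short-lived guardian, was 34.1 FPKM in Myc, 29.1 in MycN, 32.5 in Minimal Myc and 27.9 in vector; Myc was the highest library and vector the lowest. Bcl2, the founding member of the family, was the least abundant of the protective genes at 2.63 FPKM in Myc, 1.88 in MycN, 2.21 in Minimal Myc and 2.22 in vector. It made up 3.17% to 3.97% of the summed FPKM of the protective genes, so nearly all protective transcript was Bcl2l1 and Mcl1.

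Relative to all genes, all 9 of their centred differences from vector, 3 genes in 3 libraries, lay below the median of all genes, between -0.58 and -0.19 on the log2 scale, and 4 of the 9 lay between the quartiles of all genes. Of the 12 such values of the 4 measured BH3-only genes, 8 also lay below that median, in a range from -0.61 to 0.59. Bcl2 was at -0.30 in Myc, -0.58 in MycN and -0.48 in the Minimal Myc library. Bcl2l1 was at -0.46, -0.55 and -0.21, and Mcl1 at -0.19, -0.36 and -0.26, in the same libraries. In the authors' scaled table all 9 also lay below that median, between -0.66 and -0.13, although all 9 were then above vector in level, where 6 of 9 were in unscaled FPKM. These comparisons share the vector library, so the 3 values of a gene are not independent. In the ranking of the 11640 genes by FPKM, where 1 is the highest, Bcl2l1 stood at 2995 in Myc, 3097 in MycN, 2621 in Minimal Myc and 2022 in vector. Mcl1 stood at 2605, 2828, 2810 and 2113 in that order of libraries. A rank does not depend on how a library is scaled, and by rank both genes stood highest in vector. So did Bcl2, and so did the BH3-only gene Bad, at 3708, 4294, 3805 and 3363 in that order of libraries. This standing is thus not particular to the protective genes, and the share of all genes that ranked highest in vector was not computed.

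The effectors were the most abundant class in all 4 libraries. Bax, which moves from the cytosol to mitochondria when activated, was 121 FPKM in Myc, 109.9 in MycN, 105 in Minimal Myc and 75.6 in vector. Vector was lowest and Myc highest, at 1.60 times vector. Bak1, the effector already seated in the membrane, was 52.6 FPKM in Myc, 59.4 in MycN, 60.7 in Minimal Myc and 37.8 in vector. Here Myc was the lowest of the libraries with an added protein, and Minimal Myc the highest at 1.61 times vector. Relative to all genes, Bax was at 0.19 in Myc, 0.12 in MycN and -0.01 in the Minimal Myc library, and Bak1 at -0.01, 0.22 and 0.20 (log2). Both effectors thus differed from vector about as much as the median gene did, and all 6 values lay between the quartiles of all genes. By rank Bax stood at 672 in Myc, 638 in MycN, 839 in Minimal Myc and 687 in vector.

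Among BH3-only genes Bid stood out. Bid links death receptors to mitochondria, since caspase-8 cleaves it into an active fragment. It was 39.0 FPKM in Myc, 36.0 in MycN, 35.8 in Minimal Myc and 18.2 in vector. The 3 libraries with an added protein lay close together, and vector was apart from them at a ratio of 2.15 with Myc, 1.98 with MycN and 1.97 with Minimal Myc. As log2(FPKM + 1) the differences were 1.06, 0.95 and 0.94, or 0.59, 0.53 and 0.47 relative to all genes. Of all 11640 genes, 90.8% had a lower difference from vector than Bid in Myc, 90.6% in MycN and 83.8% in the Minimal Myc library. Its rank by FPKM was 2270 in Myc, 2238 in MycN, 2580 in Minimal Myc and 3264 in vector.

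Bad, which is held inactive by survival kinase phosphorylation, was 22.9 FPKM in Myc, 18.2 in MycN, 23.4 in Minimal Myc and 17.5 in vector. MycN was close to vector, with a ratio of 1.04, while Minimal Myc was 1.34 times vector. Bcl2l11, the gene of Bim, a direct activator of Bax and Bak, was 4.55 FPKM in Myc, 6.39 in MycN, 5.37 in Minimal Myc and 3.93 in vector. It was highest in MycN, at 1.62 times vector and 1.40 times Myc.

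Bbc3 and Pmaip1, BH3-only genes that p53 can induce, were low, and Bcl2l11 was about as low as Bbc3. Bbc3, the gene of Puma, was 5.70 FPKM in Myc, 5.60 in MycN, 3.69 in Minimal Myc and 4.15 in vector. It was the only one of the 10 members with its lowest value in Minimal Myc, where it stood at -0.61 relative to all genes against vector and at -0.49 against Myc (log2). Pmaip1, the gene of Noxa, which binds Mcl1, did not reach the mean of 1 FPKM. It was 0.291 FPKM in Myc, 0.241 in MycN, 0.649 in Minimal Myc and 0.175 in vector. The highest of these values was in the library with the high interferon genes, but at this level, with read depth unknown, no fold is read from it.

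**Figure D1:**
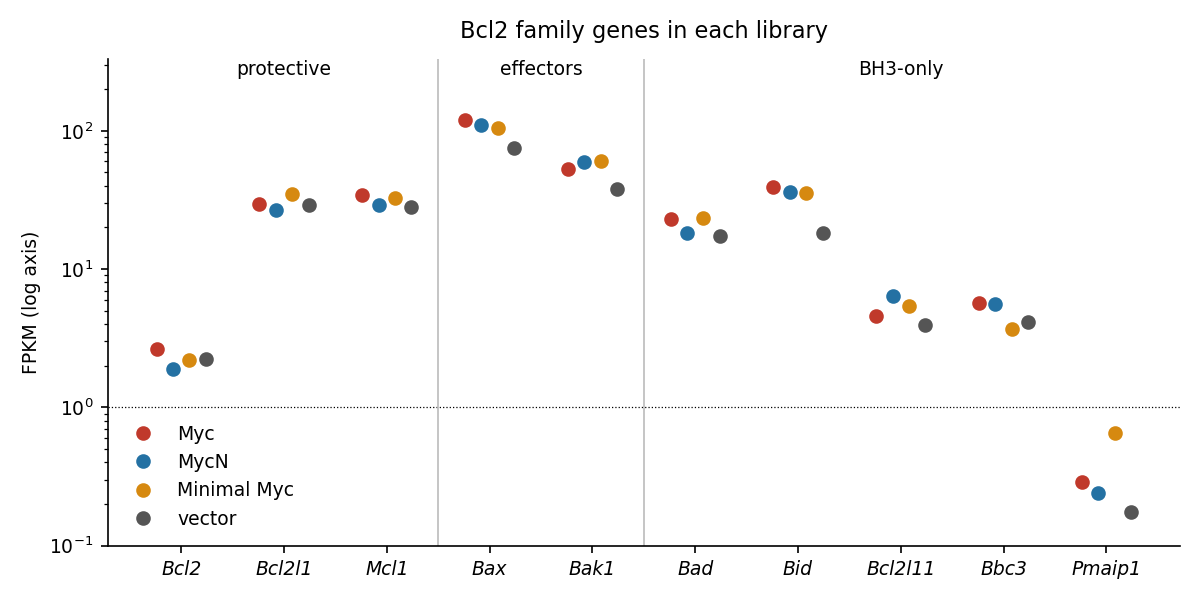
FPKM of the 10 members on a log axis, 1 point per library, grouped by role, with a dotted line at 1 FPKM. Bid shows the widest gap between the libraries with an added protein (35.8 to 39.0 FPKM) and vector (18.2 FPKM) among members above 1 FPKM, and Pmaip1 lies far below the others.

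Counted over the family, few members crossed a 2-fold difference. Of the 9 members above the filter, 9 in Myc and 7 in each of MycN and Minimal Myc were higher than vector by any amount, beside 83.5%, 81.8% and 83.0% of all genes. At least 2-fold higher was 1 member in Myc, Bid, beside 11.2% of all genes. The count was 0 in MycN and 0 in Minimal Myc, beside 7.65% and 13.6%. At least 2-fold lower were 0 members in each, beside 1.56% in Myc, 1.86% in MycN and 1.68% in the Minimal Myc library. With 9 members, counts this small do not set the family apart from all genes. In the authors' scaled table the counts of members at least 2-fold higher were 8 in Myc, 2 in MycN and 2 in the Minimal Myc library, beside 78.5%, 27.4% and 33.7% of all genes. Bid and Bak1 were the pair in both MycN and Minimal Myc, and Bcl2l1 was among those higher in Myc, at 2.06 times vector. The median member difference was 0.37 in Myc, 0.36 in MycN and 0.37 in the Minimal Myc library, below the median of all genes in each. Between the quartiles of all genes lay 7 of 9 members in Myc, 4 in MycN and 6 in the Minimal Myc library. Vector held the lowest value of 7 of the 10 members and the highest of 0. Those 7 include Pmaip1, which is below the filter. Of the 11640 genes past the filter, vector held the lowest value of 68.0% and the highest of 5.53%.

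**Figure D2:**
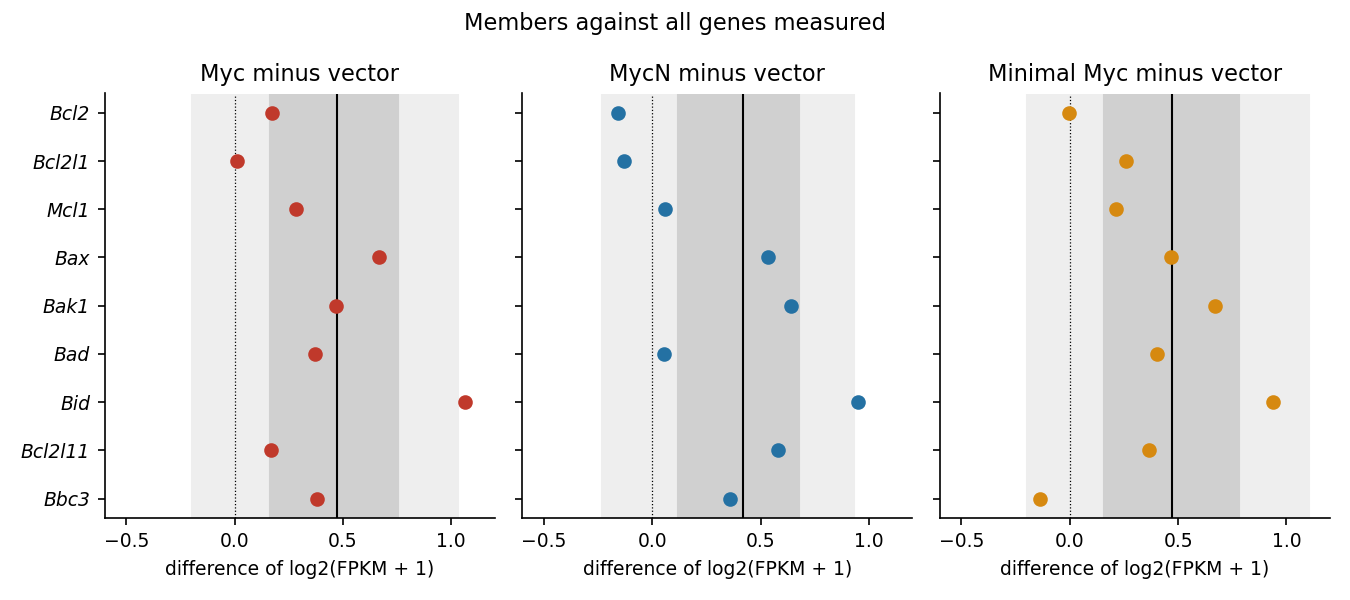
Difference of log2(FPKM + 1) from vector for the 9 measured members (points) in Myc, MycN and Minimal Myc. The black line is the median of 11640 genes (0.47, 0.42 and 0.47), the darker band spans their quartiles, the paler band their 10th to 90th percentiles, and the dotted line is 0. Bcl2, Bcl2l1 and Mcl1 lie left of the median line in all 3 panels, and Bid lies right of the darker band in each.

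Comparisons between Myc proteins left out the vector library and showed smaller differences. In MycN against Myc the 9 members ranged from -0.33 for Bcl2 to 0.41 for Bcl2l11 (log2), with 0 at least 2-fold higher and 0 lower, beside 1.95% and 2.74% of all genes. In Minimal Myc against Myc they ranged from -0.52 for Bbc3 to 0.25 for Bcl2l1, again with 0 and 0, beside 4.48% and 2.16%. In Minimal Myc against MycN they ranged from -0.49 for Bbc3 to 0.39 for Bcl2l1, with 0 and 0, beside 6.94% and 3.69%. The medians of the members were -0.13, -0.07 and 0.03, and those of all genes -0.06, -0.03 and 0.05.

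The balance between classes can be read within a library, where the scaling of the library cancels. Protective genes summed to 66.2 FPKM in Myc, 57.5 in MycN, 69.8 in Minimal Myc and 59.3 in vector. Effectors summed to 173 FPKM in Myc, 169 in MycN, 165 in Minimal Myc and 113 in vector. BH3-only genes summed to 72.4 FPKM in Myc, 66.4 in MycN, 68.9 in Minimal Myc and 43.9 in vector. Bid alone made up 53.9% of that sum in Myc, 54.2% in MycN, 51.9% in Minimal Myc and 41.4% in vector. The ratio of protective to effector transcript was therefore 0.382 in Myc, 0.340 in MycN, 0.422 in Minimal Myc and 0.523 in vector. The ratio of protective to BH3-only transcript was 0.914 in Myc, 0.866 in MycN, 1.01 in Minimal Myc and 1.35 in vector. Both ratios were highest in vector and lowest in MycN, and they show unequal differences between classes, not which class moved. They are ratios of RNA, and say nothing of protein amount, cleavage or phosphorylation.

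Gene by gene, 18 ratios of an effector or BH3-only gene to a protective gene were formed from the 9 measured members. Of these, 16 were higher in Myc than in vector, 17 in MycN and 15 in Minimal Myc, and 12 were lowest in vector. Most of the 11640 genes also differed from vector by more than the protective genes did. The share with a lower difference than Bcl2, Bcl2l1 and Mcl1 was 25.5%, 17.0% and 33.2% in Myc. It was 12.1%, 12.9% and 21.2% in MycN, and 16.9%, 32.3% and 28.9% in the Minimal Myc library. The counts are therefore not particular to death-promoting genes. The 18 ratios reuse the same 9 genes and 4 libraries and are not independent. Bax over Bcl2l1 was 4.10 in Myc, 4.14 in MycN, 2.98 in Minimal Myc and 2.59 in vector. Bak1 over Mcl1, a pair known to bind each other, was 1.54 in Myc, 2.04 in MycN, 1.87 in Minimal Myc and 1.35 in vector. Bid over Bcl2l1 was 1.33 in Myc, 1.36 in MycN, 1.02 in Minimal Myc and 0.622 in vector, so that Bid was the lower of the pair in vector alone. Bcl2l11 over Bcl2l1 was 0.155 in Myc, 0.241 in MycN, 0.153 in Minimal Myc and 0.135 in vector, apart in MycN. Lower than in vector were all 3 ratios of Bbc3 in Minimal Myc, such as Bbc3 over Bcl2l1 at 0.105 against 0.142 in vector. The same held for 2 ratios of Bcl2l11 in Myc and 1 of Bad in MycN.

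**Figure D3:**
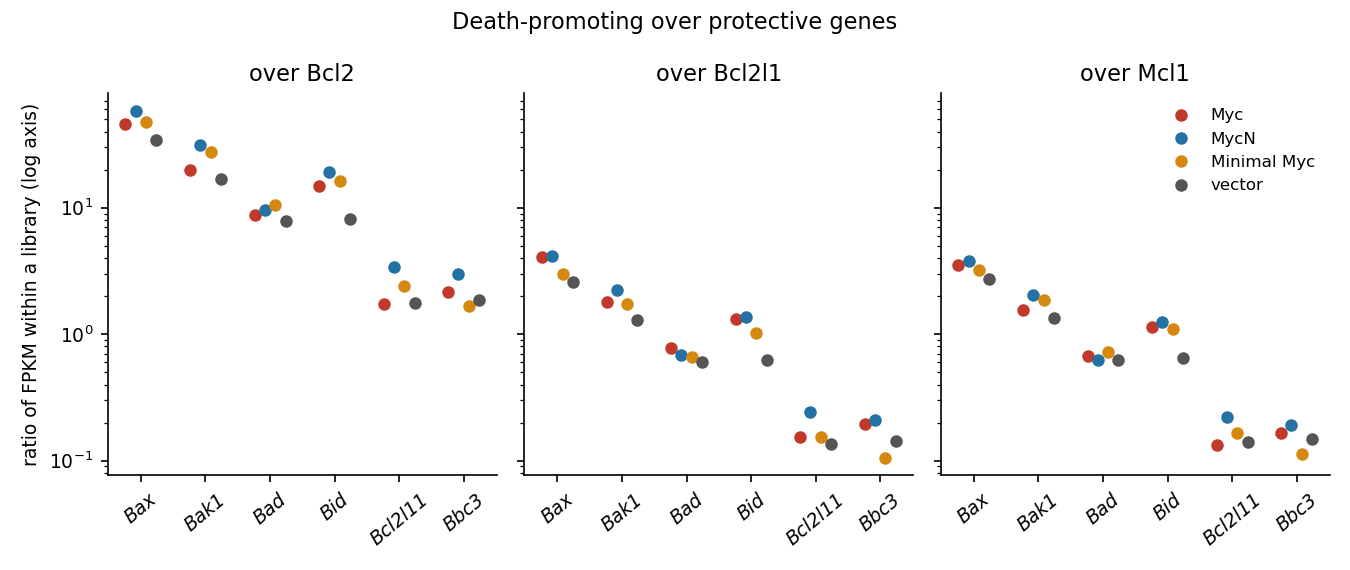
Ratio of the FPKM of each effector or BH3-only gene to Bcl2, Bcl2l1 or Mcl1 within a library, on a log axis, 1 point per library. Vector is the lowest point for 12 of 18 ratios, and all Bid ratios show it apart, as in Bid over Bcl2l1 (1.33, 1.36, 1.02 and 0.622 in Myc, MycN, Minimal Myc and vector).

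The likeness of a gene to Bid was measured as the largest deviation among its 3 log2 differences from vector, and 20 of 10793 genes compared lay within 0.1 of Bid in all 3. The nearest were Rpl10a (deviation 0.04), the fatty acid elongase gene Elovl5 (0.06), the RNA-binding protein gene Hnrnpr (0.07), the centrosome and dynein gene Nde1 (0.07) and the splicing gene Prpf4 (0.07). Rpl10a, a ribosomal protein gene whose value is uncertain because such genes have processed copies, was 759 FPKM in Myc, 683 in MycN, 678 in Minimal Myc and 354 in vector.

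Lists of related genes are counted next, each to be read beside the 11.2% of all genes that were at least 2-fold higher than vector in Myc, 7.65% in MycN and 13.6% in the Minimal Myc library. Of 15 further genes of the Bcl2 family, 8 passed the filter. Bok, a Bax-like gene, was 28.0 FPKM in Myc, 58.6 in MycN, 25.0 in Minimal Myc and 22.9 in vector. Bmf, a BH3-only gene, was 1.29 FPKM in Myc, 2.72 in MycN, 0.663 in Minimal Myc and 0.489 in vector. MycN was the highest library for both, as it was for Bcl2l11. Bcl2l15 was 0.870 FPKM in Myc, 0.694 in MycN, 1.47 in Minimal Myc and 1.76 in vector. At least 2-fold higher than vector were 1 gene in Myc, 3 in MycN and 0 in the Minimal Myc library, with 0 lower in each. The list medians relative to all genes were 0.08 in Myc, 0.38 in MycN and -0.33 in the Minimal Myc library (log2).

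Downstream of the pores, the apoptosome and mitochondrial release genes were all above vector, 10 of 10 in each of the 3 libraries, beside the 83.5%, 81.8% and 83.0% of all genes given above. At least 2-fold higher were 1 in Myc, 0 in MycN and 2 in the Minimal Myc library, and 0 were lower. Their medians relative to all genes were 0.36, 0.02 and 0.29. Aifm1, a mitochondrial flavoprotein that can enter the nucleus in cell death, was 36.3 FPKM in Myc, 26.0 in MycN, 65.2 in Minimal Myc and 19.0 in vector. Htra2, a protease that counters inhibitors of apoptosis, was 80.6 FPKM in Myc, 59.0 in MycN, 65.9 in Minimal Myc and 38.7 in vector. Endog, a mitochondrial nuclease, was 2.17 FPKM in Myc, 1.98 in MycN, 2.74 in Minimal Myc and 0.787 in vector. All 8 caspase and DNA fragmentation genes were likewise above vector in each library, with 0 at least 2-fold higher in Myc, 1 in MycN and 1 in the Minimal Myc library, 0 lower, and medians of 0.27, 0.36 and 0.09 relative to all genes. Casp2, an initiator caspase, was 13.6 FPKM in Myc, 15.2 in MycN, 11.1 in Minimal Myc and 7.16 in vector. Casp8, which cleaves Bid, was 13.5 FPKM in Myc, 13.0 in MycN, 17.4 in Minimal Myc and 7.34 in vector.

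Inhibitors of apoptosis, which bind caspases or the complexes that activate them, had 6 of 8 genes measured, with 2 at least 2-fold higher in Myc, 1 in MycN and 1 in the Minimal Myc library, 0 lower, and medians of 0.22, 0.30 and 0.14 relative to all genes. Birc3 was 11.2 FPKM in Myc, 10.3 in MycN, 15.7 in Minimal Myc and 4.39 in vector, and Birc2 was 18.2, 14.5, 13.2 and 6.77 in the same libraries. Naip5, a sensor of bacterial flagellin, was 0.926, 1.25, 0.855 and 1.30 FPKM; it belongs to a family of close copies and is uncertain.

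Death receptor genes, of which 9 of 10 were measured, had 2 at least 2-fold higher in Myc, 2 in MycN and 4 in the Minimal Myc library, and 0 lower, with medians of 0.12, 0.08 and 0.16 relative to all genes. Fas was 12.6 FPKM in Myc, 18.2 in MycN, 16.6 in Minimal Myc and 3.24 in vector. Of the genes in the apoptosis lists it had the widest difference from vector, before centring, in MycN and Minimal Myc. Tnfrsf21, another death domain receptor, was 3.79 FPKM in Myc, 2.52 in MycN, 0.182 in Minimal Myc and 0.321 in vector. Tnfrsf10b, the mouse receptor for Trail, was 14.0 FPKM in Myc, 13.5 in MycN, 7.88 in Minimal Myc and 12.0 in vector.

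Upstream of the BH3-only genes, the p53 arm had 8 of 10 genes measured, with 2 at least 2-fold higher in Myc, 2 in MycN and 1 in the Minimal Myc library, and 1, 0 and 1 lower. Its medians relative to all genes were 0.23, -0.19 and 0.20. Cdkn2a, whose Arf product stabilizes p53, was 536 FPKM in Myc, 543 in MycN, 737 in Minimal Myc and 227 in vector. Mdm4, which restrains p53, was 11.4 FPKM in Myc, 16.5 in MycN, 7.65 in Minimal Myc and 5.96 in vector. Cdkn1a, the p53 target that stops the cell cycle, was 9.92 FPKM in Myc, 16.5 in MycN, 8.18 in Minimal Myc and 25.0 in vector. Of the measured genes of this list only Cdkn1a was highest in vector, and all others except Ccng1 were lowest there. Bbc3 was highest in Myc, and whether p53 bears on it was not tested.

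Other inducers of BH3-only genes went apart, with all 7 measured. Foxo3, a transcription factor that induces Bcl2l11 and Bbc3, was 12.9 FPKM in Myc, 13.0 in MycN, 5.31 in Minimal Myc and 4.16 in vector. Minimal Myc was nearest to vector in FPKM for Foxo3, above it, and for Bbc3, below it. For Bcl2l11 Myc was nearest, at 4.55 FPKM beside 3.93 in vector. Relative to all genes, Bbc3 was farthest from vector in Minimal Myc, at -0.61 (log2). Whether Foxo3 bears on either gene was not tested. Ddit3, a stress transcription factor, was 63.5 FPKM in Myc, 37.6 in MycN, 90.7 in Minimal Myc and 65.5 in vector, and Jun was 54.8, 54.8, 50.1 and 74.1 in the same libraries. At least 2-fold higher than vector were 1 in Myc, 2 in MycN and 0 in the Minimal Myc library, 0 were lower, and the medians relative to all genes were -0.40, -0.36 and -0.01. The 6 genes of Mcl1 turnover had 1, 0 and 1 at least 2-fold higher and 0 lower, with medians of -0.11, -0.08 and -0.11. Huwe1, a ubiquitin ligase of Mcl1, was 50.9 FPKM in Myc, 28.5 in MycN, 36.1 in Minimal Myc and 22.0 in vector. Usp9x, which removes ubiquitin from Mcl1, was 19.7 FPKM in Myc, 16.7 in MycN, 37.9 in Minimal Myc and 17.4 in vector. Bag3, a co-chaperone, was 23.2, 19.3, 16.8 and 17.8 FPKM in the same libraries.

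**Figure D4:**
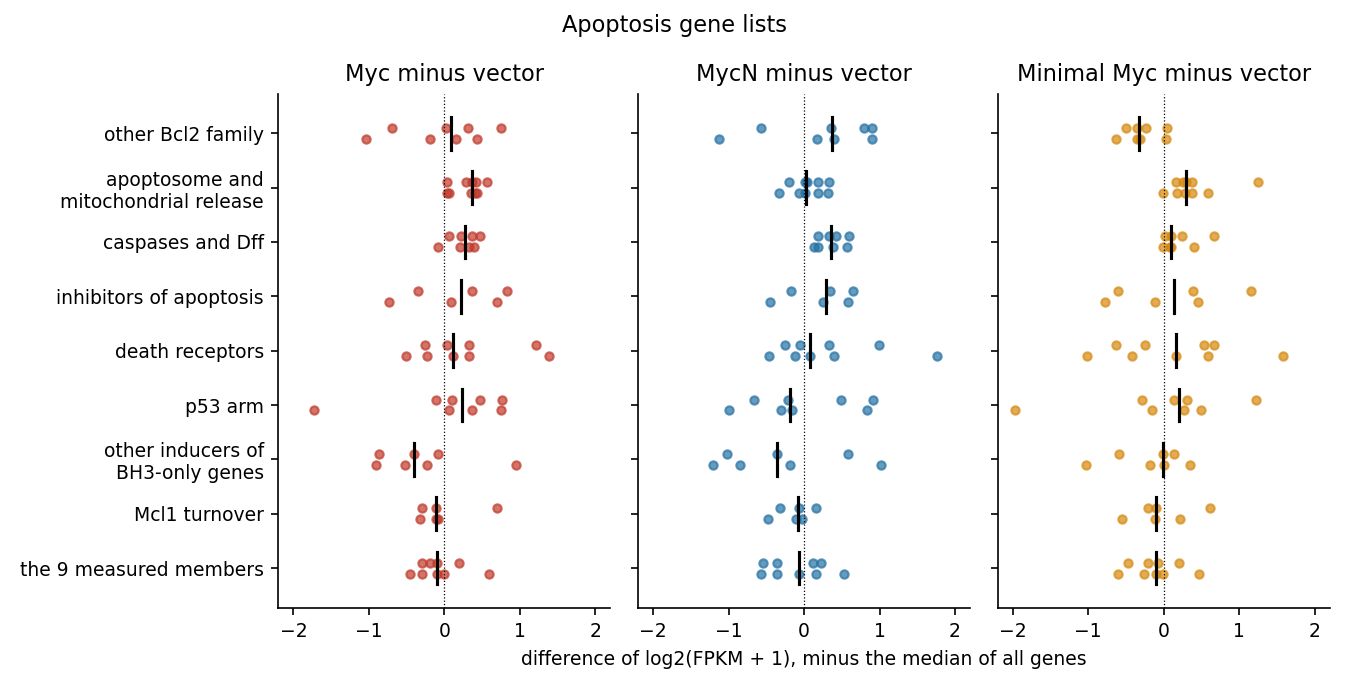
Difference of log2(FPKM + 1) from vector minus the median of all 11640 genes, for each measured gene of 8 apoptosis lists and of the members, with a black bar at each list's median and a dotted line at 0. The medians of the members lie at -0.10, -0.06 and -0.11, and those of the apoptosome and release list at 0.36, 0.02 and 0.29, in Myc, MycN and Minimal Myc.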

How the data were processed

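RNA-seq of polyadenylated RNA was made from 4 cultures, 1 library each, grouped by the genotype label. Per the submitters' processing notes, the software was TopHat2 2.0.11 with Cufflinks 2.2.0 and the build mm9, with roles not stated. The authors deposited an FPKM table and a second FPKM table in which each library is multiplied by 1 factor (2.04 for Myc, 1.30 for MycN, 1.28 for Minimal Myc, 1 for vector). The 32 rows of NanoString signal hold 0 members and were left out. FPKM carry no read depth, so depth is unknown and no interval is given. Identical rows of 1 gene were counted once and differing rows summed, which touched 0 members. Differences were taken on log2(FPKM + 1) from the unscaled values, which makes low genes look less different than they are. Genes were kept at a mean of at least 1 FPKM, without 310 small RNA genes. With 1 library per group there is no test; genes were counted at a 2-fold difference. The members and gene lists were chosen with earlier results of these data known. Named genes are all members, up to 3 genes per list with the largest centred difference from vector, and the 5 genes nearest to Bid. Of these, 1 gene is not reported here. Calculations were tested on simulated data and used Python 3.11.15, numpy 2.4.6 and pandas 2.3.3. Alternatives changed the pseudocount, filter, table, centring, row merging and class summary. Promoters are from RefSeq on GRCm38.p6; the mm9 files give no coordinates, and none was converted.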

Additional observations from a re-analysis of the deposited data

How the results depend on the processing

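No paired analysis was possible because each group has 1 library, and for the same reason no replicate could be left out. The counts and medians depended most on the scale. In the authors' scaled table, members at least 2-fold higher than vector numbered 8 in Myc, 2 in MycN and 2 in the Minimal Myc library, and 1 member, Bbc3, was at least 2-fold lower in Minimal Myc than in Myc. The median member difference there was 1.29 in Myc, 0.69 in MycN and 0.68 in the Minimal Myc library against vector, -0.78 in MycN against Myc and -0.73 in Minimal Myc against Myc. Centred on the median of all genes, 0 members were at least 2-fold higher in Myc, and the medians turned to -0.10 in Myc, -0.061 in MycN and -0.11 in the Minimal Myc library against vector, and to -0.013 in Minimal Myc against MycN. Without the filter the median in MycN against vector was 0.22. Pseudocounts of 0.1 and 0.5 FPKM and the highest row of a gene changed no count and moved no median by over 0.1 (log2). With geometric means of FPKM plus 1, protective over effector was 0.195 in Myc, 0.163 in MycN, 0.195 in Minimal Myc and 0.259 in vector, and protective over BH3-only 1.84, 1.58, 1.85 and 2.21, where Myc and MycN turned from below to above 1. Without the most abundant member of each class, protective over effector was 0.609, 0.479, 0.615 and 0.831 in the same libraries, and protective over BH3-only 0.935 in MycN, 1.13 in Minimal Myc and 1.22 in vector. Vector stayed highest and MycN lowest of the protective over effector ratios under each of these.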

Other observations

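Perp, a membrane protein gene that p53 induces and that epithelia use in desmosomes, was chosen after its values were seen. It was 0.0172 FPKM in Myc, 0.00630 in MycN, listed at 0 in Minimal Myc and 2.33 FPKM in vector, and did not reach a mean of 1 FPKM. Of the 9 epithelial and cornified markers, Sprr1a and Sprr2h were also highest in vector, at 23.6 and 9.41 FPKM. The other 7 were below 1 FPKM in every library, and of them only Cdh1 was highest in vector.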
